A study of Mus musculus with 4 samples.

Results

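The 10 genes described here are Mapk12, Mapk13 and Mapk14, which encode the p38 kinases p38γ, p38δ and p38α; Sqstm1, which encodes the adaptor p62; Mtor, Rptor and Rps6kb1 of the mTORC1 pathway; the insulin receptor substrate genes Irs1 and Irs2; and Prkaa1, which encodes a catalytic subunit of AMPK. They were taken by symbol as genes tied to imidazole propionate by work in liver, and all 10 were found, each under 1 identifier, among the 33696 genes of the files. Their RNA was counted in single nuclei of the hypothalamus of wild-type C57BL/6J mice described as conventional. The libraries ImP 3 and ImP 4 came from mice given imidazole propionate (ImP) at 350 µg per day, and the libraries Vehicle 1 and Vehicle 2 from mice given vehicle, in each case for 2 weeks by osmotic minipump in the peritoneal cavity. All 4 libraries are labelled SPF and Baseline. ImP was dissolved in water with 1% DMSO, and 1% DMSO is given for the vehicle libraries as well. No age or sex was given. Whether the 2 libraries of a group come from different animals is not stated, and p-values therefore cover library-to-library spread alone, which may be technical.

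Imidazole propionate is made from histidine by gut bacteria. In hepatocytes it has been described to act through p38γ, which phosphorylates p62, and through mTORC1 and its kinase S6K1 (the product of Rps6kb1), which phosphorylate insulin receptor substrates and dampen insulin signalling, while AMPK opposes mTORC1. In the hypothalamus mTORC1, AMPK and the insulin receptor substrates belong to the circuits that sense nutrients and hormones. These steps are changes of phosphorylation and of protein; counts of nuclear RNA measure the genes' transcripts and not those steps.

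Nuclei were assigned by marker genes and the counts of unique molecular identifiers (UMIs) were summed per library and class, so a level is given as the CPM of that class (UMIs scaled to the same total). The 4 libraries held 48060194 to 51945297 UMIs each, and 10917 to 15725 nuclei per library passed the filters, of which 87.5 to 94.0% passed the gate of 1 class. Between 35 and 67 barcodes were shared by any pair of libraries. Nuclei were shallower in ImP, with a median of 3617 and 3592 UMIs per neuron in ImP 3 and ImP 4, against 4685 and 3992 in Vehicle 1 and Vehicle 2. ImP 4 stood apart, with 378 nuclei of pituitary cells against 1 or 2 in each other library, and pituitary genes reached 1656 CPM inside its neurons, against 28.7 CPM in neurons of ImP 3 and at most 13.4 CPM in neurons of the vehicle libraries. Marker genes used in no gate gave 4916 to 5615 CPM for astrocyte genes in astrocytes and 1639 to 1971 CPM for microglial genes in microglia. Inside microglia astrocyte genes came to 1676 to 2437 CPM and oligodendrocyte genes to 1157 to 1668 CPM. Inside oligodendrocytes astrocyte genes came to 1602 to 2323 CPM. The part of RNA of other classes in the glial levels was not tested. In neurons such glial and vascular genes were far lower, and higher in both ImP libraries than in both vehicle libraries. Astrocyte genes came to 697 to 703 CPM in ImP neurons and 413 to 544 CPM in vehicle neurons, and oligodendrocyte genes to 418 to 449 CPM in ImP and 263 to 338 CPM in vehicle. Microglial genes came to 16.9 to 21.7 CPM in ImP neurons and 9.31 to 13.2 CPM in vehicle neurons, and endothelial and mural genes to 334 to 376 CPM in ImP and 237 to 276 CPM in vehicle. Neuron marker genes used in no gate (Stmn2, Nefl, Nefm, Scg2, Resp18 and Uchl1) did not tell neurons from glia. They came to 910 to 1253 CPM in neurons and 749 to 1580 CPM in astrocytes. In oligodendrocytes they came to 750 to 1695 CPM and in microglia to 757 to 1944 CPM. These genes therefore could not show how much neuronal RNA the glial classes held. In each of these classes, and in precursors, their level was higher in both ImP libraries than in both vehicle libraries. The part of these marker genes' shifts in the results below was not tested. Grb10, a neuron-rich gene of the insulin pathway at 261 CPM in neurons, lay at 18.2 CPM in astrocytes, 17.5 CPM in oligodendrocytes and 26.3 CPM in microglia. It was picked after its values were seen, as the called gene of a list of insulin pathway genes with the lowest ratio over neurons in each of these classes. Its values therefore do not measure how much neuronal RNA the glial classes held.

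None of the 10 genes passed the test for a change with ImP in neurons, the class with the most counts. Of the 9 genes with enough counts to be tested, 0 passed an adjusted p of 0.05 by edgeR, where 1 of all 20582 genes tested passed (0.00486%), and 0 passed by DESeq2. Irs2 alone had an unadjusted p under 0.05. The log2 ratios of ImP over vehicle ran from -0.10 for Sqstm1 to 0.29 for Irs2, with a median of -0.04 against -0.01 over all genes, and the 95% intervals of all 9 lay between -0.33 and 0.53. Both ImP libraries lay above both vehicle libraries for 1 gene and below them for 5, where 17.4% and 20.6% of all genes tested did so (38% together). Between classes of cells the same genes did differ. Compared with neurons, 1 of the 9 genes was higher and 5 lower in astrocytes, 1 higher and 6 lower in oligodendrocytes, 0 higher and 4 lower in oligodendrocyte precursors, and 2 higher and 3 lower in microglia. Of all genes tested, 63.1% differed in astrocytes (29.3% higher, 33.7% lower), 64.7% in oligodendrocytes (28.8% and 36.0%), 41.0% in precursors (17.1% and 24.0%) and 39.1% in microglia (14.9% and 24.2%). No test over the 9 genes as a group was made. The median log2 ratio of all genes was -0.08, -0.13, -0.14 and -0.38 in these 4 contrasts, and small ratios are also given relative to it. The ratios carry scaling factors of edgeR that the CPM do not, so ratios and CPM can differ, most of all in microglia. There Rps6kb1, Mtor and Prkaa1 had means of 130.7, 50.7 and 22.4 CPM, against 132.4, 54.2 and 23.1 CPM in neurons. Their log2 ratios were -0.51, -0.58 and -0.57. In the contrasts of precursors and microglia edgeR took 1 spread for all genes of like level, so their p-values do not reflect the spread of each single gene.

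**Figure D1:**
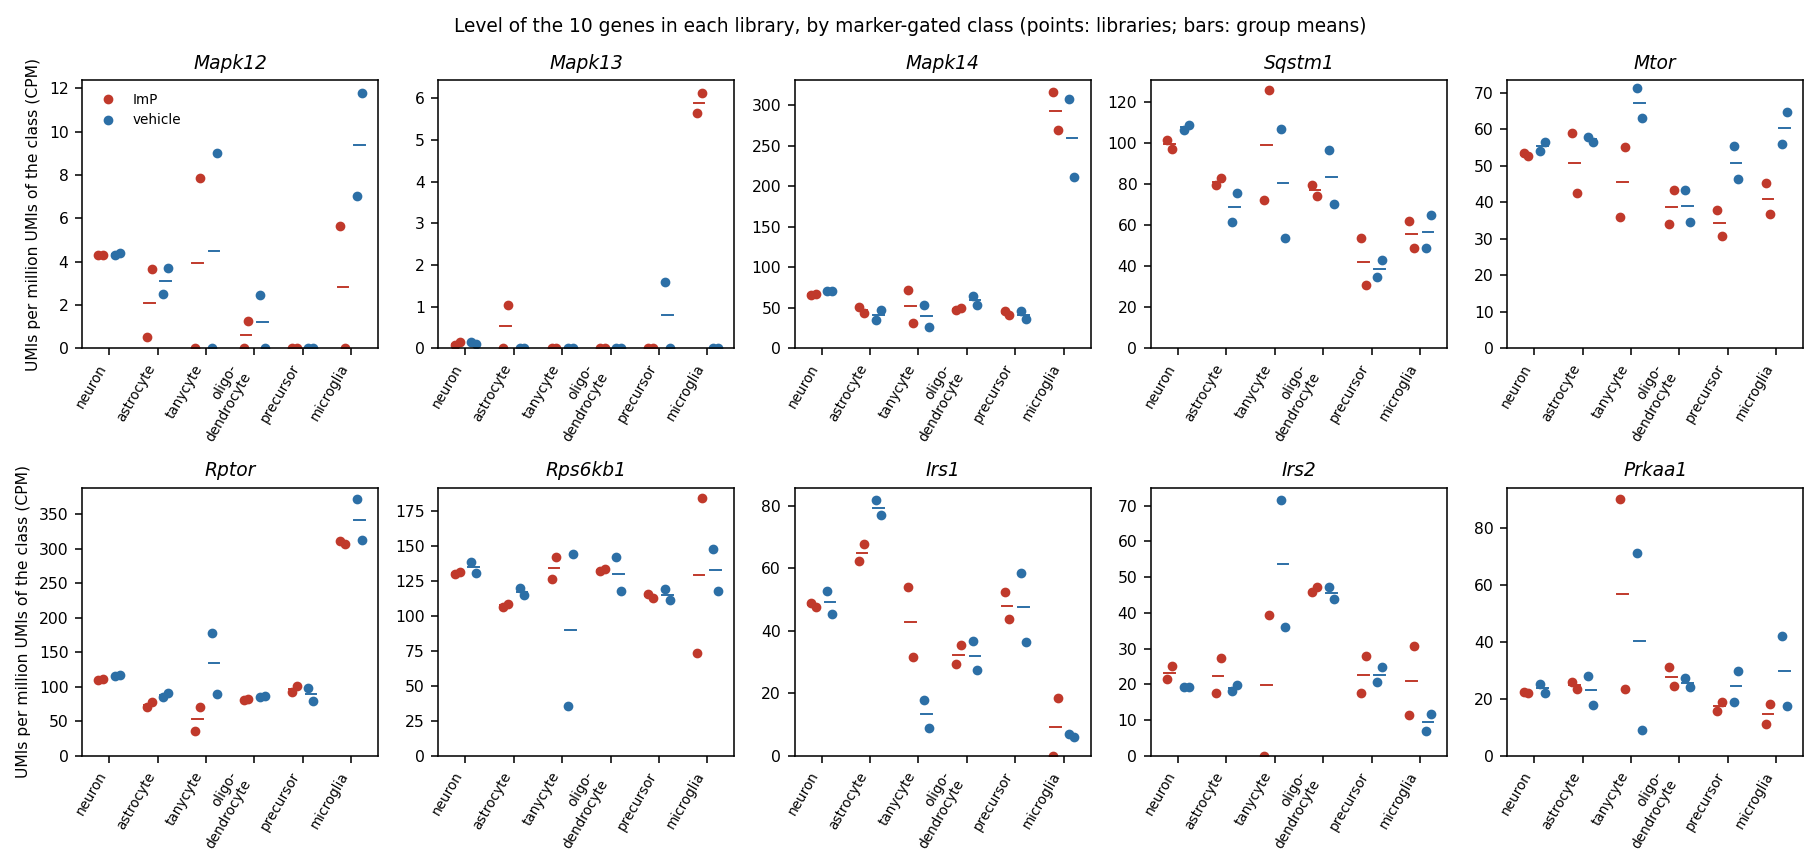
Level of each of the 10 genes (y axis, CPM, linear from 0) in 6 marker-gated classes (x axis), with 1 point per library, ImP in red left of vehicle in blue, and bars at the group means. Among these 6 classes Mapk14 and Rptor stand highest in microglia and Irs1 in astrocytes, while points of ImP and vehicle lie close together in neurons. Irs2 has its highest mean over the 4 libraries in oligodendrocytes (46.0 CPM), with tanycytes overlapping at 0 to 71.4 CPM on 13 UMIs.

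The p38 kinase genes differed widely in how much RNA was seen. Mapk12, the gene of p38γ, was scarce: 181 and 181 UMIs were counted in all neurons of ImP 3 and ImP 4, against 182 and 186 in Vehicle 1 and Vehicle 2. That is 4.33 and 4.30 CPM in ImP neurons, against 4.33 and 4.40 CPM in vehicle neurons. The ImP libraries lay just below the vehicle libraries, with a log2 ratio of 0.00 (95% interval -0.33 to 0.33, adjusted p = 1.00 by edgeR). Against neurons, Mapk12 was lower in oligodendrocytes, with 6 UMIs over the 4 libraries (log2 ratio -2.18, SE 0.53, adjusted p = 6.09e-04 by edgeR). In precursors it had 0 UMIs among 2549446, where a count of 3 would be 1.18 CPM, so that it was at least 3.69-fold lower than the 4.34 CPM of neurons over the 4 libraries (adjusted p = 1.15e-04 by edgeR, and 0.0985 with the stricter gate). In astrocytes 18 UMIs gave a ratio of -0.82 (SE 0.36, adjusted p = 0.0481), a call that held in 4 of 10 alternatives and was lost with DESeq2 (0.107), the stricter gate (0.0767), thinning (0.142), the stricter nucleus filter (0.0796), without Vehicle 1 (0.0777) and without ImP 3 (-0.45, adjusted p = 0.31). Microglia held 4 UMIs, too few to place Mapk12 there.

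Mapk13, the gene of p38δ, was at the edge of detection. It had 3 and 6 UMIs in neurons of ImP 3 and ImP 4, against 6 and 4 in neurons of Vehicle 1 and Vehicle 2, and 29 UMIs over all nuclei of the 4 libraries. The count filter therefore kept it out of every test of ImP within a class and between classes. It entered the microglial test of a differing ImP ratio on 2 microglial UMIs, and that value is not read here.

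Mapk14, the gene of the broadly expressed p38α, was at 66.2 and 67.1 CPM in neurons of ImP 3 and ImP 4, against 70.6 and 70.7 CPM in neurons of Vehicle 1 and Vehicle 2. Both ImP libraries were lower, by less than the test could tell from the spread (log2 ratio -0.07, SE 0.06, adjusted p = 0.891 by edgeR). Among neurons and the 5 glial classes drawn its highest level was in microglia, the immune cells of the brain, at 316.6 and 269.8 CPM in ImP and 308.6 and 212.2 CPM in vehicle. All 4 microglial values lay above every value of neurons, and the contrast gave a log2 ratio of 1.53 (SE 0.15, adjusted p = 2.78e-24 by edgeR). It rested on 180 UMIs, and its adjusted p was at most 2.10e-06 over the 9 alternatives. Mapk14 was lower than in neurons in astrocytes (-0.69, SE 0.10, adjusted p = 6.59e-07), in precursors (-0.68, SE 0.14, adjusted p = 8.48e-06) and in oligodendrocytes (-0.31, or -0.18 relative to the median gene, adjusted p = 6.72e-03). Without ImP 3 the oligodendrocyte call was lost (-0.26, adjusted p = 0.067), as it was after thinning every nucleus to 1000 UMIs (-0.20, adjusted p = 0.134). Thinning also ended the call in precursors (-0.47, adjusted p = 0.0584). In the GENCODE M21 annotation 1 other gene overlaps Mapk14 on the same strand, and it had 306 UMIs in all nuclei against 13218 of Mapk14. Sqstm1, Mtor, Rptor, Rps6kb1, Irs2 and Prkaa1 each have 1 overlapping gene on the opposite strand, and no source used here states whether counting was stranded.

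Sqstm1, whose product p62 binds ubiquitin and carries cargo to autophagosomes, was at 101.9 and 97.3 CPM in ImP neurons, against 106.7 and 108.9 CPM in vehicle neurons. The ImP values were the lower pair without overlap, and the log2 ratio of -0.10 did not pass (SE 0.06, 95% interval -0.24 to 0.05, adjusted p = 0.814 by edgeR). In astrocytes the order was the other way, at 79.8 and 83.0 CPM in ImP and 61.8 and 75.9 CPM in vehicle, with a log2 ratio of 0.25 (adjusted p = 0.66). The difference between the astrocyte and neuron ratios was 0.33 (95% interval 0.00 to 0.67, adjusted p = 0.709). Among neurons, astrocytes, tanycytes, oligodendrocytes, precursors and microglia, the mean of Sqstm1 was highest in neurons, at 103.7 CPM, with tanycytes overlapping, and lowest in precursors. It was 40.6 CPM ± 10.2 (SD, n = 4) in precursors (-1.34, SE 0.13, adjusted p = 3.38e-22), 56.3 CPM ± 8.41 in microglia (-1.35, SE 0.23, adjusted p = 2.15e-08), 75.1 CPM ± 9.36 in astrocytes (-0.52, SE 0.09, adjusted p = 1.09e-05) and 80.4 CPM ± 11.6 in oligodendrocytes (-0.33, or -0.20 relative to the median gene, adjusted p = 2.65e-03 by edgeR). Each of these 4 calls held in every alternative run.

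Mtor, the kinase of both mTOR complexes, was at 53.5 and 52.7 CPM in neurons of ImP 3 and ImP 4, against 54.1 and 56.6 CPM in neurons of Vehicle 1 and Vehicle 2. The values nearly touched and the log2 ratio was -0.04 (SE 0.07, adjusted p = 0.929 by edgeR). Among glutamatergic neurons it was at 52.6 and 47.1 CPM in ImP and 58.4 and 60.8 CPM in vehicle, with the smallest p of the genes in that class (log2 ratio -0.24, adjusted p = 0.745). Precursors showed the same order at lower counts, 38.1 and 30.7 CPM in ImP against 55.4 and 46.4 CPM in vehicle (-0.56, 95% interval -1.18 to 0.06, adjusted p = 0.578). In GABAergic neurons the groups overlapped, at 51.9 and 53.8 CPM in ImP and 52.6 and 52.1 CPM in vehicle. The GABAergic log2 ratio of ImP over vehicle exceeded the glutamatergic one by 0.28 (95% interval 0.04 to 0.52, adjusted p = 0.999). Between classes Mtor was lower in oligodendrocytes than in neurons (38.9 CPM ± 5.29, SD, n = 4; -0.44, SE 0.11, adjusted p = 5.92e-04) and close to neurons in astrocytes (-0.08, 95% interval -0.27 to 0.12). In precursors (-0.34, adjusted p = 0.0515) and microglia (-0.58, adjusted p = 0.0624) it lay just beyond the threshold, and passed in precursors without Vehicle 1 (adjusted p = 0.0131), after thinning (0.0299) and with no filter (0.0312), and in microglia with no filter (0.0291) and without Vehicle 2 (0.0451).

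Rptor encodes raptor, the subunit that brings substrates to mTORC1. It was at 109.7 and 111.3 CPM in ImP neurons, against 115.9 and 116.5 CPM in vehicle neurons. The ImP pair was lower without overlap, and the log2 ratio of -0.06 did not pass (SE 0.06, adjusted p = 0.899 by edgeR). In microglia Rptor was at 311.0 and 306.6 CPM in ImP and 371.7 and 312.4 CPM in vehicle. Every microglial value was above every neuron value, with a log2 ratio of microglia over neurons of 1.04 (SE 0.14, adjusted p = 1.54e-13) on 211 UMIs. Mapk14 and Rptor were the 2 genes of the 10 that were higher in microglia than in neurons, where 14.9% of all genes tested were. In astrocytes (81.2 CPM ± 9.09, SD, n = 4; -0.55, adjusted p = 1.72e-06) and oligodendrocytes (83.5 CPM ± 2.65; -0.40, adjusted p = 1.76e-04) Rptor was lower than in neurons. Its lower level in precursors (-0.27, or -0.13 relative to the median gene, adjusted p = 0.0269) was lost with DESeq2 (adjusted p = 0.187), with its size factors in edgeR (0.0822), with the stricter gate (0.0709), after thinning (0.124), without Vehicle 2 (0.172) and without ImP 3 (0.0667).

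Rps6kb1, the gene of the mTORC1 substrate kinase S6K1, was at 129.9 and 130.8 CPM in ImP neurons, against 138.6 and 130.5 CPM in vehicle neurons. The groups overlapped and the log2 ratio was -0.03 (SE 0.06, adjusted p = 0.947 by edgeR). Its level varied little over classes: astrocytes were lower than neurons (-0.31, SE 0.08, adjusted p = 1.38e-03), oligodendrocytes differed by 0.02 (95% interval -0.15 to 0.19), and precursors did not pass (-0.20, adjusted p = 0.102, and 0.0477 with no filter). In microglia the mean level was close to that of neurons, at 130.7 CPM against 132.4 CPM. The edgeR ratio of -0.51 (-0.13 relative to the median gene) passed there at an adjusted p of 0.0107 on 84 UMIs. It did not pass with DESeq2 (0.17), with the stricter nucleus filter (0.119) or without ImP 3 (-0.31, adjusted p = 0.238). Tanycytes, the glia that line the floor of the third ventricle, had 27 to 67 nuclei per library, and Rps6kb1 was the gene of the 10 that could be tested there. It was at 126.4 and 141.8 CPM in ImP tanycytes, against 35.7 and 144.0 CPM in vehicle tanycytes (log2 ratio 0.39, 95% interval -0.69 to 1.47, adjusted p = 0.986). Without Vehicle 1 that ratio was -0.10.

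**Figure D2:**
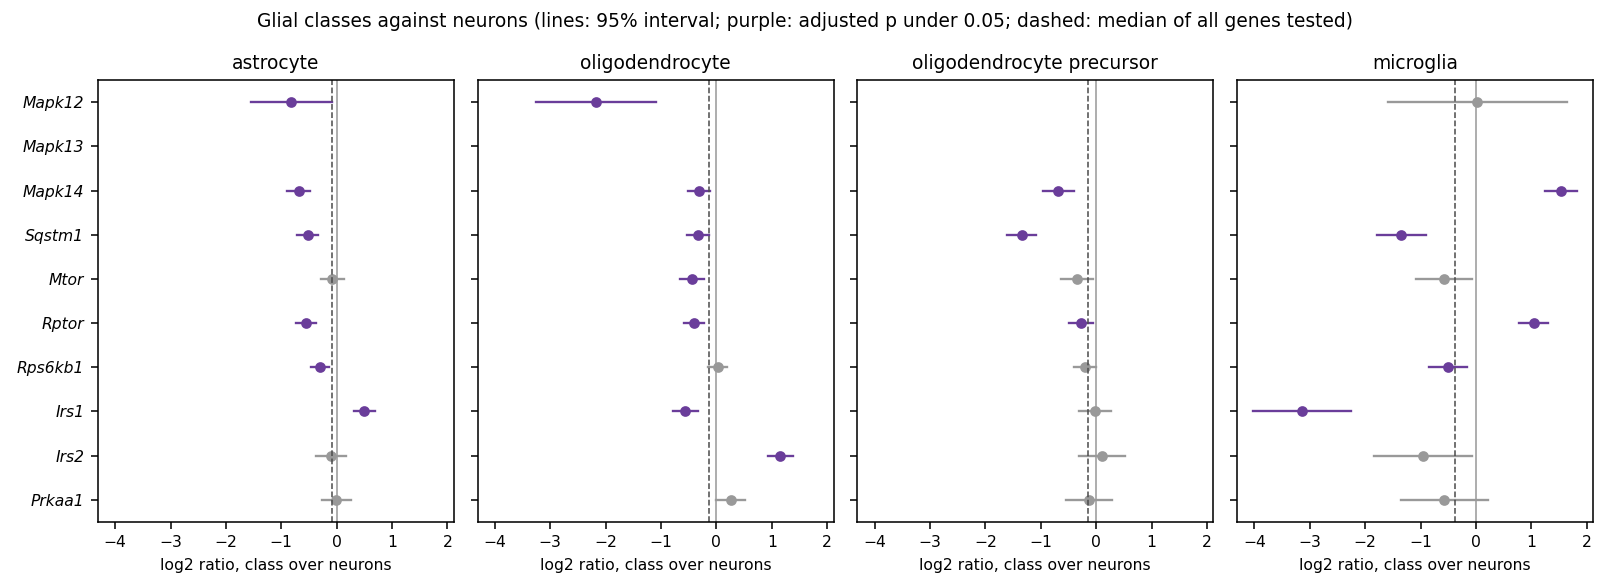
Log2 ratio of each gene in 4 glial classes over neurons (x axis) with the 95% interval, in purple where the adjusted p is under 0.05, with the median of all genes as a dashed line. Mapk12 in precursors is not drawn, since it had 0 UMIs there, and Mapk13 was not tested. In microglia Mapk14 (1.53) and Rptor (1.04) stand to the right and Irs1 (-3.14) far to the left, while in oligodendrocytes Irs2 (1.16) and Irs1 (-0.56) lie on opposite sides.

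Irs1 and Irs2 encode the docking proteins that link the insulin and IGF1 receptors to PI3-kinase, and they were distributed differently over the glial classes. The 250 bases before the annotated start of both genes are shown, a choice made after their values were seen, because each holds the E-box CACGTG, given in capitals (RefSeq, build GRCm38.p6, minus strand, 5′ to 3′). The E-box reads the same on both strands. Irs1 is at chr1:82291440-82291689, with the E-box beginning 115 bases before the start, and Irs2 is at chr8:11008930-11009179, with the E-box beginning 44 bases before the start.
Irs1: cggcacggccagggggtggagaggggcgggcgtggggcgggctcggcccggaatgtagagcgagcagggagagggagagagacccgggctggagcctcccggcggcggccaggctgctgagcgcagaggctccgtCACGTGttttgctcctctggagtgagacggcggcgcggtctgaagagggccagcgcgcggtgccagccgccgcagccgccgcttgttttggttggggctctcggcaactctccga
Irs2: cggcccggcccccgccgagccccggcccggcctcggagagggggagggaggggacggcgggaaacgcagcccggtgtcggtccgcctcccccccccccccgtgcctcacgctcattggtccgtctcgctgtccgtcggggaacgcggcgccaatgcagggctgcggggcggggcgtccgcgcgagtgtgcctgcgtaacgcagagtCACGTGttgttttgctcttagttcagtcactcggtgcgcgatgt
The sequence CACGTG, to which the lysosomal regulator TFEB and other helix-loop-helix factors bind, occurred in 6.02% of the 32851 upstream windows of this length and, among the 10 genes, in those of Irs1, Irs2 and Mapk12. TGACNNNGC, the core of the antioxidant response element, occurred in 10.2% of windows on either strand and in those of Irs1 and Irs2. In both genes this match is on the opposite strand and shares the bases CA with the start of the E-box, so the matches are not separate sites. The FOXO sequence TGTTTAC (3.17% of windows) and the ETS sequence GAGGAAGT (2.44%) were in none of the 11 windows of the 10 genes. Such matches describe the sequence and not binding.

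Irs2 was the gene with the largest ImP ratio in neurons, at 21.5 and 25.0 CPM in ImP 3 and ImP 4, against 19.2 and 19.2 CPM in Vehicle 1 and Vehicle 2. Both ImP libraries were above both vehicle libraries and ImP 4 was the highest. The log2 ratio was 0.29 (SE 0.10, 95% interval 0.06 to 0.53, unadjusted p under 0.05), and it failed the adjustment over all genes (adjusted p = 0.55 by edgeR, 0.0751 to 1.00 over 11 alternatives). Leaving out ImP 4 gave a ratio of 0.17 (adjusted p = 0.999), and leaving out ImP 3 gave 0.41 (adjusted p = 0.0751). In the 378 pituitary nuclei of ImP 4, which are outside the neuron class, Irs2 was at 76.0 CPM, and the part of pituitary RNA in the neuron value was not tested. GABAergic neurons had 20.9 and 25.1 CPM in ImP and 21.6 and 19.5 CPM in vehicle (0.18, adjusted p = 0.834), a ratio that came to 0.03 without ImP 4. In glutamatergic neurons, at 19.8 and 19.0 CPM in ImP and 17.9 and 15.8 CPM in vehicle, the ratio was 0.21 (adjusted p = 0.927). With all nuclei of a library summed, it was 22.4 and 28.3 CPM in ImP and 20.3 and 20.5 CPM in vehicle (0.33, adjusted p = 0.547), and 0.15 without ImP 4.

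Over classes Irs2 was highest in oligodendrocytes, the myelin-forming glia, among the classes tested against neurons. It was at 45.7 and 47.3 CPM in ImP oligodendrocytes, against 47.2 and 43.8 CPM in vehicle oligodendrocytes. ImP and vehicle overlapped there (0.02, adjusted p = 0.985), and all 4 values exceeded the 19.2 to 25.0 CPM of neurons. The ratio of oligodendrocytes over neurons was 1.16 (SE 0.11, adjusted p = 9.71e-11 by edgeR), and it passed in all 10 alternatives. In astrocytes, precursors and microglia Irs2 did not differ from neurons beyond the spread (-0.10, 0.11 and -0.95, adjusted p = 0.516, 0.732 and 0.0826), and the microglial value passed without ImP 4 (-1.46, adjusted p = 0.0478).

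Irs1 was spread over these glial classes in another order. In neurons it was at 48.9 and 47.5 CPM in ImP, against 52.9 and 45.4 CPM in vehicle. The ImP values lay within the vehicle range (log2 ratio -0.01, SE 0.08, adjusted p = 0.987 by edgeR). In astrocytes it was at 62.2 and 67.8 CPM in ImP 3 and ImP 4, against 81.7 and 77.1 CPM in Vehicle 1 and Vehicle 2. Both ImP libraries were lower, with the smallest p of the genes in astrocytes (-0.28, 95% interval -0.64 to 0.08, adjusted p = 0.597). All 4 astrocyte values were above those of neurons (0.50, SE 0.09, adjusted p = 2.28e-05). Oligodendrocytes, at 32.2 CPM ± 4.48 (SD, n = 4), were lower than neurons (-0.56, SE 0.11, adjusted p = 4.15e-05), a call lost with the stricter gate (-0.43, adjusted p = 0.0709) and after thinning (-0.29, adjusted p = 0.0695), and precursors did not differ from them (-0.02, 95% interval -0.30 to 0.27). In microglia 5 UMIs were found in the 4 libraries, 0 and 3 in ImP and 1 and 1 in vehicle, which made Irs1 the gene of the 10 that was furthest below neurons among those tested in microglia (-3.14, SE 0.45, adjusted p = 3.42e-11). A level was also measured in 91 newly formed oligodendrocytes, a class too small to be tested, where Irs1 was at 241.9 and 145.4 CPM in ImP and 379.5 and 263.1 CPM in vehicle. These values rest on 15 and 8 UMIs in ImP and 22 and 15 UMIs in vehicle, and the ImP libraries were the lower pair. Over the 4 libraries that is 258.6 CPM (exact Poisson 95% interval 197.3 to 332.9 CPM, counting error only), above the value of Irs1 in any class tested.

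Prkaa1, the gene of the catalytic AMPK subunit α1, was at 22.6 and 22.1 CPM in ImP neurons, against 25.4 and 22.1 CPM in vehicle neurons. ImP 4 and Vehicle 2 were level, and the log2 ratio was -0.07 (SE 0.09, adjusted p = 0.912 by edgeR). Of the 9 genes tested between classes it was the one that passed in no glial contrast: astrocytes differed from neurons by -0.01 (95% interval -0.27 to 0.26), oligodendrocytes by 0.26 (adjusted p = 0.0793), precursors by -0.13 (0.661) and microglia by -0.57 (0.264). Prkaa2, the gene of the other catalytic subunit, was lower in microglia than in neurons, at a mean of 8.66 CPM in microglia and 66.8 CPM in neurons (-3.33, SE 0.40, adjusted p = 1.37e-15). The regulatory subunit gene Prkab1 was higher in microglia, at 24.1 CPM against 4.23 CPM in neurons (2.06, SE 0.52, adjusted p = 2.87e-04).

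**Figure D3:**
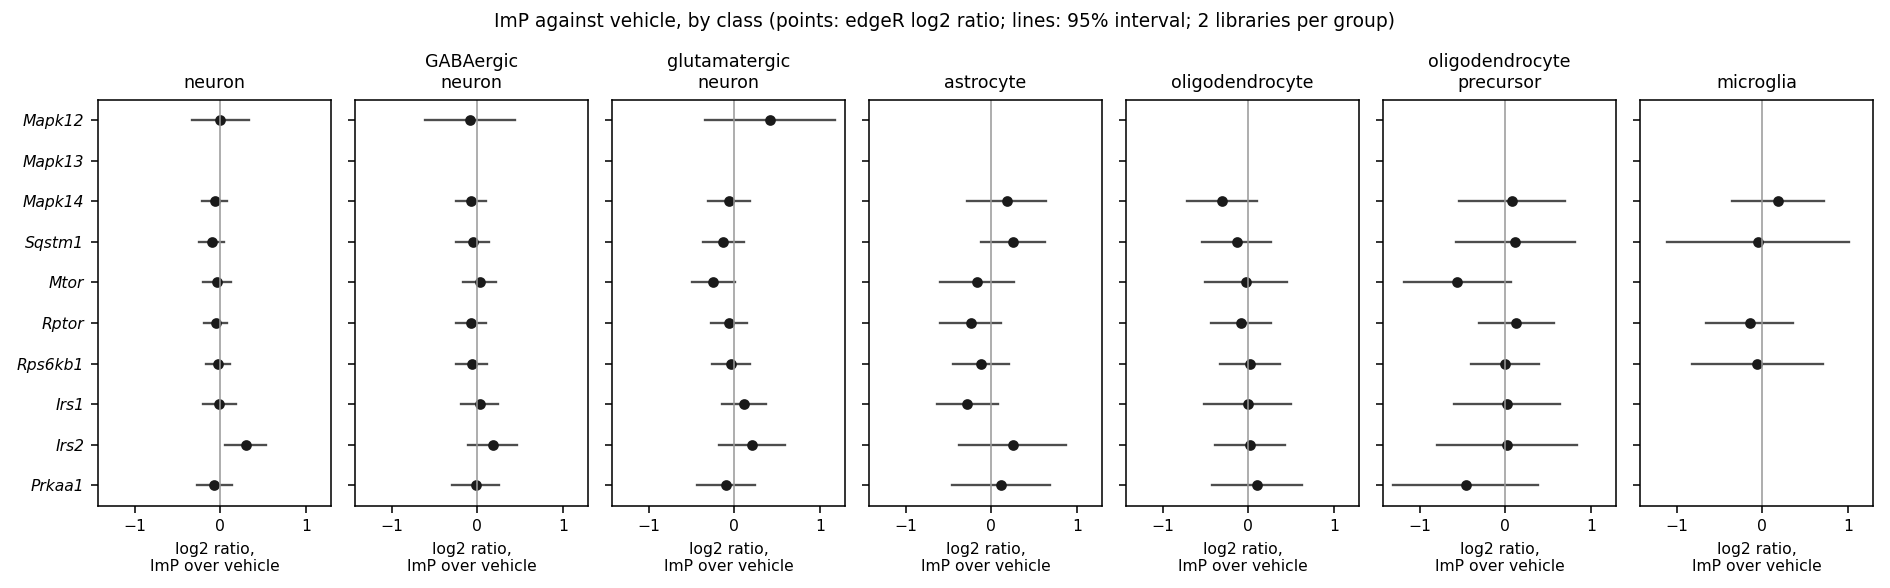
Log2 ratio of ImP over vehicle (x axis) with its 95% interval for each gene and class, from 2 libraries per group, with no point where a gene had too few counts. In the classes drawn all intervals cross 0 except that of Irs2 in neurons (0.06 to 0.53), whose adjusted p is 0.55. All nuclei together, where the interval of Irs2 is 0.03 to 0.62, are not drawn.

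Outside neurons the same test also called none of the genes. By edgeR 0 of the 9 genes tested passed in GABAergic neurons, 0 of 9 in glutamatergic neurons, 0 of 8 in astrocytes, 0 of 8 in oligodendrocytes, 0 of 8 in precursors, 0 of 4 in microglia, 0 of 1 in tanycytes and 0 of 9 in all nuclei together. Of all genes tested, 0.0175%, 0.0343%, 0%, 0%, 0.298%, 0.309%, 0% and 0.00470% passed in these classes, in the same order. At an unadjusted p under 0.05 there was Irs2 in all nuclei and 0 in each of the other classes, and DESeq2 called 0 in each class. For oligodendrocytes the smallest p belonged to Mapk14, at 46.9 and 50.4 CPM in ImP and 65.2 and 53.6 CPM in vehicle (-0.30, 95% interval -0.71 to 0.11, adjusted p = 0.598). For microglia it was again Mapk14 (0.18, 95% interval -0.36 to 0.72, adjusted p = 0.879). Outside neurons both ImP libraries lay above both vehicle libraries for 0 of 9 genes in GABAergic neurons (17.3% of all genes), 1 of 9 in glutamatergic neurons (16.8%) and 1 of 8 in astrocytes (21.8%), and below them for 3 (20.2%), 4 (18.0%) and 3 (19.1%). In oligodendrocytes, precursors and microglia 2, 1 and 1 genes lay below (18.4%, 18.8% and 19.8% of all genes) and 0 above (23.2%, 20.7% and 20.8%). In tanycytes the 1 gene tested overlapped, where 33.4% of all genes did not (16.1% with ImP higher, 17.3% with ImP lower). Counted in both directions, the groups did not overlap for 37.5% of all genes in GABAergic neurons, 34.8% in glutamatergic neurons, 40.9% in astrocytes, 41.7% in oligodendrocytes, 39.5% in precursors and 40.5% in microglia. In all nuclei 1 gene lay above and 4 below (18.9% and 21.3% of all genes, 40.2% together). Tests of whether the ImP ratio differed between each glial class and neurons, or between GABAergic and glutamatergic neurons, called 0 of the 9 genes tested, or of 10 in the microglial contrast, in any of the 5 contrasts, where 0.126%, 0.454%, 0.0408%, 0.00515% and 0.0118% of all genes passed for astrocytes, oligodendrocytes, precursors, microglia and the 2 neuron classes. At an unadjusted p under 0.05 these tests gave 1 gene for astrocytes, Sqstm1, and 1 for the neuron classes, Mtor. For oligodendrocytes, precursors and microglia these tests also took 1 spread for all genes of like level.

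Between GABAergic and glutamatergic neurons no difference of the genes passed. By edgeR 0 of the 9 genes tested differed between them, where 13.7% of all genes did (5.34% higher and 8.35% lower in GABAergic neurons). Irs2 came closest, with a mean of 21.8 CPM in GABAergic and 18.1 CPM in glutamatergic neurons and a log2 ratio of 0.22 (95% interval 0.03 to 0.40, adjusted p = 0.132), and Mtor followed at -0.12 (adjusted p = 0.259). The other 7 ratios lay between -0.24 and 0.04. The 2 transmitter classes hold only part of the neurons. A neuron needed at least 2 UMIs of its transmitter genes and 4 times those of the other. GABAergic neurons were 2013 and 2303 nuclei in ImP 3 and ImP 4 and 2011 and 2242 in Vehicle 1 and Vehicle 2. Glutamatergic neurons were 750 and 728 in ImP and 874 and 783 in vehicle. All neurons were 10389 and 10480 nuclei in ImP and 7913 and 9372 in vehicle.

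Neuron types with a single defining peptide or enzyme were few, 86 to 382 nuclei over the 4 libraries, and their values are described without a test. The insulin receptor substrates varied among them. Irs1 was lowest in the histamine neurons marked by Hdc, at 22.6 CPM (exact Poisson 95% interval 15.1 to 32.4, counting error only), and in the orexin neurons marked by Hcrt, at 25.7 CPM (14.4 to 42.3). In Hdc neurons Irs1 was at 31.15 CPM in ImP and 14.01 CPM in vehicle, and in Hcrt neurons it ran from 8.68 to 44.2 CPM over the libraries. It was highest in the oxytocin neurons, at 63.2 CPM (49.3 to 79.8), against 48.7 CPM in all neurons. In oxytocin neurons Irs1 ran from 39.9 to 82.4 CPM over the libraries, with 71.45 CPM in ImP and 53.8 CPM in vehicle. Irs2 was at 35.9 CPM in Hcrt neurons (22.3 to 54.9) and at 13.54 and 14.93 CPM in the oxytocin and vasopressin neurons (7.58 to 22.3 and 9.92 to 21.6). These values pool the groups. In oxytocin neurons Irs2 was at 18.7 CPM in ImP and 7.69 CPM in vehicle, on 11 and 4 UMIs. Vasopressin neurons had 20.5 and 8.90 CPM, on 20 and 8 UMIs, and Hcrt neurons 34.89 and 37.45 CPM. All neurons together were at 21.2 CPM. Sqstm1 was above its 103.7 CPM of all neurons in oxytocin neurons, at 151.6 CPM (129.6 to 176.4), and in the Pmch neurons that make melanin-concentrating hormone, at 147.0 CPM (122.4 to 175.2). Its ImP and vehicle levels were 171.8 and 128.8 CPM in oxytocin neurons and 130.7 and 169.1 CPM in Pmch neurons. In Pmch neurons Mapk14 was at 39.99 CPM (27.7 to 55.9), against 68.7 CPM in all neurons. Of the 86 Pomc neurons 52 were from ImP 4, the library with pituitary nuclei, which also express Pomc, so their values are not read here.

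**Figure D4:**
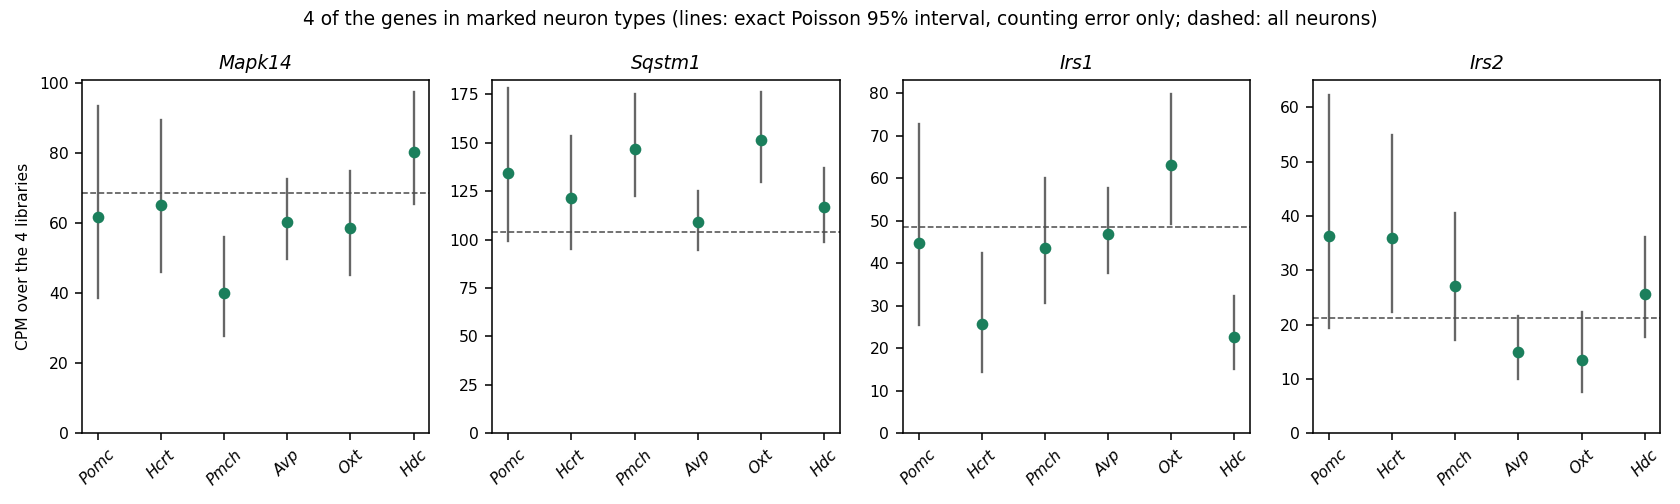
Level of Mapk14, Sqstm1, Irs1 and Irs2 (y axis, CPM over the 4 libraries, linear from 0) in neurons marked by 1 peptide or enzyme gene (x axis), with exact Poisson 95% intervals and the level of all neurons as a dashed line. Irs1 is low in Hcrt and Hdc neurons (25.7 and 22.6 CPM) and Irs2 low in Avp and Oxt neurons (14.93 and 13.54 CPM). The levels pool ImP and vehicle, which lay apart for Irs2 in Avp neurons (20.5 and 8.90 CPM) and Oxt neurons (18.7 and 7.69 CPM).

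The wider pathways around the 10 genes, listed with earlier results of these data known, held no gene that passed by edgeR in neurons. In neurons 0 of 19 tested genes of the p38 list, 0 of 20 of the p62 and autophagy list, 0 of 41 of the mTORC1 list, 0 of 28 from the insulin receptor to Akt and 0 of 19 of the AMPK list passed by edgeR, with 0, 4, 4, 1 and 0 at an unadjusted p under 0.05. DESeq2 called 0, 1, 1, 0 and 0 of them, the 2 genes being Gabarap and Lamtor2. It gave no adjusted p for 2, 0, 4, 4 and 1 of the listed genes, and these counted as not called. Over all genes tested in neurons it called 280 of 20582 (1.36%), 279 of them with the higher level in ImP. The median log2 ratios of the lists by edgeR, in the same order, were -0.02, -0.01, 0.00, 0.04 and -0.04, against -0.01 over all genes tested. Among the smallest p were genes that lay higher in both ImP libraries. Lamtor2, a subunit of the lysosomal anchor of mTORC1, was at 39.0 and 40.3 CPM in ImP neurons, against 29.3 and 31.5 CPM in vehicle neurons (0.40, SE 0.08, adjusted p = 0.348). Rraga, a small GTPase that brings mTORC1 to the lysosome, had a ratio of 0.43 (SE 0.10, adjusted p = 0.348). The autophagosome genes Map1lc3a (0.35, adjusted p = 0.348) and Gabarap (0.41, adjusted p = 0.35) lay higher as well, at 46.2 and 45.4 CPM and at 42.9 and 44.3 CPM in ImP neurons, against 35.4 and 37.5 CPM and 30.7 and 35.4 CPM in vehicle neurons. Of the 1481 genes with an unadjusted p under 0.05 in neurons 1245 had the higher level in ImP. The neuron marker genes used in no gate moved the same way. They were at 1031 and 1253 CPM in ImP neurons and 910 and 989 CPM in vehicle neurons. Astrocyte genes in the same neurons, at 703 and 697 CPM in ImP and 413 and 544 CPM in vehicle, oligodendrocyte genes, at 449 and 418 CPM in ImP and 263 and 338 CPM in vehicle, and endothelial and mural genes, at 334 and 376 CPM in ImP and 237 and 276 CPM in vehicle, were higher in ImP too. Their part in these 4 ratios was not tested. For the other 3 lists the smallest p belonged to the p38 target kinase gene Mapkapk3 (0.41, adjusted p = 0.752) and the p38β gene Mapk11 (-0.20, adjusted p = 0.814), to Irs2 and the PI3-kinase subunit gene Pik3r2 (-0.26, adjusted p = 0.775), and to the AMPK-activating kinase gene Camkk1 (-0.16, adjusted p = 0.798) and the LKB1 partner gene Strada (-0.15, adjusted p = 0.813).

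**Figure D5:**
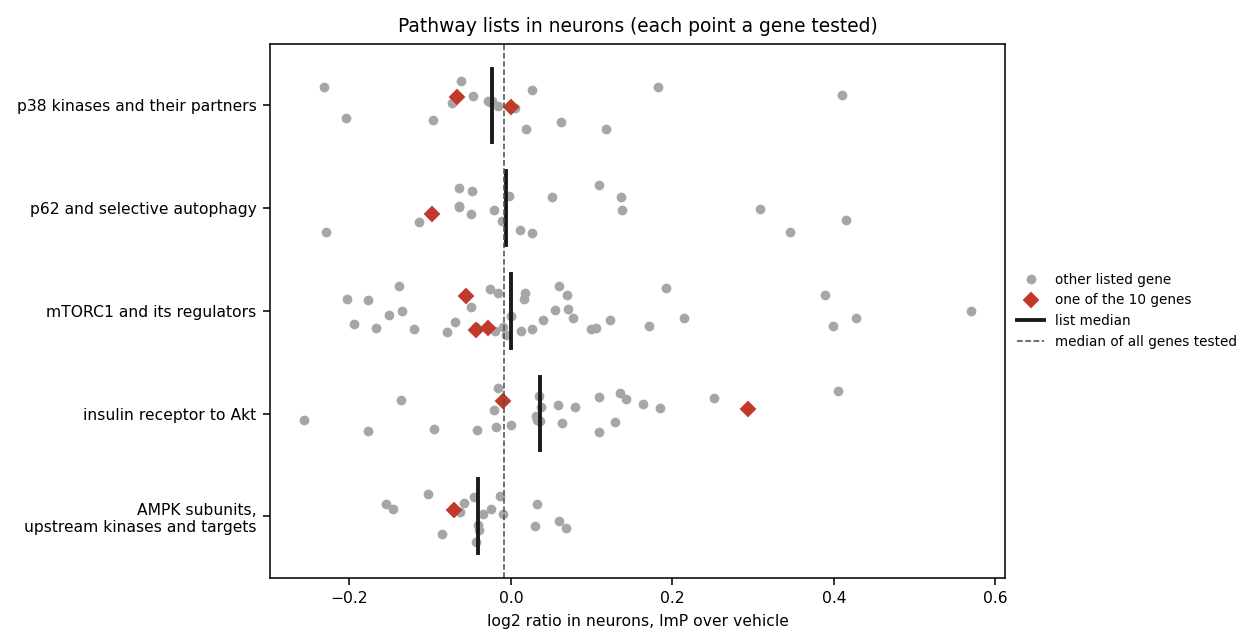
Log2 ratio of ImP over vehicle in neurons (x axis) for every tested gene of 5 pathway lists (rows), with the 10 genes as red diamonds, other genes as grey points, list medians as black bars and the median of all genes as a dashed line. List medians lie between -0.04 and 0.04, and Irs2 (0.29) is the diamond furthest to the right.

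Between classes many genes of the pathway lists differed from neurons. In astrocytes 14 of 19 genes of the p38 list passed by edgeR (4 higher, 10 lower), 14 of 20 of the p62 list (9 and 5), 25 of 41 of the mTORC1 list (15 and 10), 19 of 28 of the insulin list (10 and 9) and 10 of 19 of the AMPK list (3 and 7), beside 63.1% of all genes. Map2k6, a kinase that activates p38, was higher in astrocytes than in neurons (319 CPM in astrocytes and 45.2 CPM in neurons, log2 ratio 2.75, adjusted p = 1.12e-23), as was Castor1, an arginine sensor upstream of mTORC1 (15.9 and 0.642 CPM, 4.56, adjusted p = 5.59e-16). In oligodendrocytes Tfeb, the lysosomal regulator that mTORC1 controls, was higher (57.1 CPM in oligodendrocytes and 6.48 CPM in neurons, 3.17, adjusted p = 1.25e-20), and in microglia it was at 81.8 CPM (3.15, adjusted p = 2.03e-21). Nfe2l2, the gene of the p62-linked stress regulator NRF2, was higher than in neurons in microglia (139.6 CPM and 9.10 CPM, 3.48, adjusted p = 1.28e-40). It was also higher in astrocytes (63.1 CPM, 2.72, adjusted p = 1.6e-19) and in precursors (24.4 CPM, 1.43, adjusted p = 3.5e-08 by edgeR). Mapk11, the p38β gene, was lower in microglia (2.89 CPM and 18.7 CPM in neurons, -3.07, adjusted p = 1.44e-04 by edgeR), opposite to Mapk14. That microglial level is below the 4.6 CPM of 3 counts over the 4 libraries, so the size of the ratio is not read. Mapk11 was also lower than in neurons in astrocytes (3.72 CPM, -2.4, adjusted p = 3.5e-11) and in oligodendrocytes (2.8 CPM, -2.7, adjusted p = 9.6e-11 by edgeR). These genes were taken as the highest or lowest ratio of their list.

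The genes whose levels followed the 10 most closely were sought by Pearson correlation of log2 CPM over 32 sums, from 8 classes and 4 libraries. Mapk12 and Mapk13, with a mean under 10 CPM, were left out. The sums share libraries and depth, and GABAergic and glutamatergic neurons are also part of the neuron sums. Each remaining gene was compared with 11180 genes. Mapk14 was nearest to Srgap2 (r = 0.95), Capn3 (0.95) and Aftph (0.94), and Rptor to Otulinl (0.97), Arrb2 (0.96) and Cbl (0.95). Irs2 was nearest to Dynlt3 (0.92), P4htm and Dot1l (0.90 each), and Irs1 to Mdga2 (0.87). For Sqstm1, Mtor and Prkaa1 the closest genes had lower values, Gse1 (0.82), Coq8b (0.79) and Rnf8 (0.84), and for Rps6kb1 it was Edrf1 (0.92).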

How the data were processed

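Raw UMI counts per gene and nucleus from 4 libraries (10x Chromium 3′ libraries) were deposited by the authors; Cell Ranger 8.0.1, Seurat 5.0.0 and the build GRCm39 are named per the submitters' processing notes. Nuclei with at least 500 genes and at most 5% mitochondrial UMIs were kept and gated by marker genes. Nuclei passing several gates (259 to 957 per library) were left out, and no doublet caller was run. Counts were summed per library and class. ImP was compared with vehicle by edgeR 4.0.16 (R 4.3.3, quasi-likelihood test, TMM, minimum count 10) with Benjamini-Hochberg adjustment over all genes and a threshold of 0.05; classes were compared with the library as a block. A class needed 20 nuclei in each library. DESeq2 1.42.0, its size factors, no filter, stricter gates and nucleus filters, thinning to 1000 UMIs, a block on the library name and leaving out each library were alternatives. A gene to which DESeq2 gave no adjusted p counted as not called. The scripts were tested on simulated data.

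The members and lists were chosen with earlier results of these data known. All 10 genes are named; of each wider list the 2 genes with the smallest p in neurons are named, and the genes named between classes were chosen after their values were seen. Poisson intervals cover counting error only.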

Additional observations from a re-analysis of the deposited data

How the results depend on the processing

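None of the 10 genes passed with ImP in any class under any alternative run. The ratios followed singly are all 9 in neurons and, in each other class, the gene with the smallest p. Among these ImP ratios under the alternatives 167 kept direction and call and 13 changed sign. Among the between-class ratios of the 9 genes against neurons, and of Irs2 between the neuron classes, 316 kept both, 17 changed sign, 21 lost the call and 7 gained it. Each ratio that changed sign was one that had not passed in the reported fit.

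The number of all genes past the threshold with ImP moved widely. In neurons it was 1, against 280 with DESeq2, 0 with no filter, 722 with the block on the library name and 0 to 501 with 1 library left out. In GABAergic neurons it was 3, against 95, 125, 727 and 0 to 746 under the same alternatives. In glutamatergic neurons it was 5, against 166 with no filter, 1 with the stricter gate, 22 after thinning, 1 with the stricter nucleus filter, 344 with the block and 1 to 294 leaving 1 out. In astrocytes it was 0, against 655 with the block and 0 to 314 leaving 1 out. In tanycytes it was 0, against 6 with no filter, 2 with the block and 7 to 14 leaving 1 out. In oligodendrocytes it was 0, against 126 with no filter, 4 with the stricter gate, 568 with the block and 0 to 372 leaving 1 out. In precursors it was 26, against 3 with DESeq2 size factors, 1 with DESeq2, 87 with no filter, 16 with the stricter gate, 8 after thinning, 16 with the stricter nucleus filter, 44 with the block and 0 to 132 leaving 1 out. In microglia it was 13, against 20 with DESeq2 size factors, 0 with DESeq2, 27 with no filter, 0 after thinning, 2 with the stricter nucleus filter, 52 with the block and 0 to 65 leaving 1 out. In all nuclei it was 1, against 372 with DESeq2, 0 with no filter, 790 with the block and 0 to 157 leaving 1 out. With the block, edgeR took 1 spread for all genes of like level in GABAergic neurons, astrocytes, oligodendrocytes, tanycytes and microglia. It did so too in some runs with no filter and with 1 library left out. Counts from such runs do not reflect the spread of each single gene. The cause of the wide movement was not tested. The block pairs libraries by a prefix of their names whose meaning is not given; with 2 pairs, the correlation of deviations was 0.04 in microglia to 0.29 in neurons, so no pairing is taken from it.

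Between classes the stricter gate gave 4271 genes in place of 7610 and 2 of the 10 genes in place of 4 in precursors, and the stricter nucleus filter gave 4517 genes in place of 7198 in microglia. Between GABAergic and glutamatergic neurons 2203 genes became 1012 with DESeq2 and 784 after thinning. Leaving 1 library out gave 5 to 6 of the 10 genes in astrocytes, 6 to 7 in oligodendrocytes, 3 to 5 in precursors and 4 to 6 in microglia. For the difference of ImP ratios thinning gave 1 gene in place of 26 in astrocytes, 32 in place of 92 in oligodendrocytes, 1 in place of 8 in precursors, 0 in place of 1 in microglia and 4 in place of 2 between the neuron classes; leaving 1 library out gave 3 to 93, 8 to 144, 0 to 14, 1 to 8 and 0 to 47.

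Ratios of ImP over vehicle that changed sign were, in neurons, Irs1 with the stricter gate (0.00194) and, after thinning, Mtor (0.0425) and Mapk12 (-0.0807), and in microglia Mapk14 after thinning (-0.0103) and with the stricter nucleus filter (-0.0743). With 1 library left out they ran in neurons from -0.10 to 0.0844 for Irs1, -0.0944 to 0.0102 for Mtor, -0.15 to 0.0131 for Prkaa1 and -0.0285 to 0.0302 for Mapk12, from -0.10 to 0.47 for Rps6kb1 in tanycytes and from -0.0489 to 0.45 for Mapk14 in microglia. Against neurons, Prkaa1 in astrocytes came to 0.23 after thinning and 0.0737 with the stricter nucleus filter, Rps6kb1 in oligodendrocytes to -0.0434 with no filter and -0.0597 with the stricter gate, and Mapk12 in microglia to -0.0926 with no filter and -0.93 after thinning. In precursors Irs1 came to 0.0305 with DESeq2 and 0.0345 with its size factors, and Irs2 to -0.0155 with the stricter nucleus filter. With 1 library left out the ranges were -0.13 to 0.0162 for Mtor and -0.0604 to 0.0722 for Prkaa1 in astrocytes, -0.00817 to 0.0546 for Rps6kb1 in oligodendrocytes, -0.0854 to 0.0391 for Irs1 and -0.00406 to 0.22 for Irs2 in precursors, and -0.60 to 0.42 for Mapk12 in microglia. The stricter gate in tanycytes and microglia and the stricter nucleus filter in tanycytes were not run, since too few nuclei remained. With 2 libraries a group, few nuclei of glia and low counts of Mapk12 and Mapk13, small changes were not detectable.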
